A study of Mus musculus with 29 samples.

Results

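B1 elements are short interspersed repeats (SINEs) of rodents, and some of them are bound by RNA polymerase III (Pol III) in mouse liver. Their occupancy was followed with the score of the Pol III subunit RPC4 during liver regeneration. The loci were taken from the deposited list of Pol III loci as every entry whose name starts with B1 and contains the word SINE, which gave 29 loci and left 617 others. RPC4 values played no part in this choice, but the list itself had been drawn up from Pol III genes and from loci at which Pol III had been seen in earlier work. SINEs without known Pol III binding are therefore absent from it.

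RPC4 was measured by chromatin immunoprecipitation and sequencing (ChIP-seq) in liver of male C57BL/6 mice aged 12 to 14 weeks and fed at night. Mice were sampled 36, 48 or 60 h after partial hepatectomy (called TP36, TP48 and TP60) or before it (TP0). According to the study's methods, surgery was always done early in the day. Samples at 36 and 60 h thus fell at the opposite time of day to those at 48 h. The same holds against TP0, labelled 0 h, if its samples were taken at the hour of surgery. In comparisons of samples from opposite times of day, time after surgery and time of day, with its feeding, cannot be told apart. Partial hepatectomy removes most of the liver, after which the remaining cells enter the cell cycle and restore its mass. The labels name no transgene, mutation or drug in any group. Each of the 8 libraries came from the pooled livers of 3 mice, and each time point had 2 libraries, called series 1 and series 2 in the labels. For each locus the score compares ChIP with input fragments in the annotated interval and its flanks on the log2 scale, so that 0 means no enrichment. Errors given as SE come from a fit with 2 libraries per time point. In pooled liver, a locus bound in more cells and a locus bound more strongly in each cell cannot be told apart.

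B1 elements descend from the gene of 7SL RNA, the RNA of the signal recognition particle, as do the Alu elements of primates. They have an internal Pol III promoter of type 2, built of an A box and a B box within the transcribed sequence. The box pair is bound by the factor TFIIIC, which recruits TFIIIB and then Pol III. RPC4 is a subunit of Pol III itself and so marks where the polymerase sits on DNA. Most B1 copies in the genome are silent in adult tissues and carry repressive chromatin.

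Of the 29 loci, 14 were named B1_Mus1, 7 B1_Mus2, 3 B1_Mm, 2 B1F2 and 1 each B1_Mur1, B1_Mur3 and B1_Mur4. In what follows a locus is called by subfamily and chromosome, with a letter where a chromosome holds several of a subfamily, so that Mus1-7a is the first B1_Mus1 locus on chromosome 7. Stretches around the boxes follow for some of the loci on which the results turn, from the mouse genome NCBI37 (mm9), 5′ to 3′, on the strand given. Capitals mark matches to the A box letters, TGG-NN-CA-NN-CC written without the hyphens, and to the B box letters GTTCNANNC, where N is any base. The A box letters are of the B1 and 7SL kind, and the A boxes of tRNA genes and of B2 and B3 SINEs read differently.
Mus1-7b, highest score of any library, chr7:127986107-127986210, minus strand: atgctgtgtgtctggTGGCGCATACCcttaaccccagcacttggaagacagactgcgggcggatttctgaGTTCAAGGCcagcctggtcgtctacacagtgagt
Mm-9, below both cutoffs at TP0 and above at least 1 later, chr9:109833686-109833788, minus strand: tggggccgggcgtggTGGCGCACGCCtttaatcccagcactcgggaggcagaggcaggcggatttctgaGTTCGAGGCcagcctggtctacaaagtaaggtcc
Mus1-10b, chr10:126597060-126597162, minus strand: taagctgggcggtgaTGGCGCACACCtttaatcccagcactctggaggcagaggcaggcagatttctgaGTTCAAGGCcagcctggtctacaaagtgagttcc
Mus1-15a, lowest change at TP60, chr15:41621287-41621389, plus strand: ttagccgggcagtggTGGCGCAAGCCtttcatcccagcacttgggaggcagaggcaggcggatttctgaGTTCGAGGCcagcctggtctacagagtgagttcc
Mus1-7c, match to the A box only, chr7:133824659-133824761, minus strand: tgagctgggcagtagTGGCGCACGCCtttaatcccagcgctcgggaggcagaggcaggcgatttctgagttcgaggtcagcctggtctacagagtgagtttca
Mur3-14, changed at all 3 time points, match to the B box only and on the strand opposite to its annotation, chr14:55512404-55512506, minus strand: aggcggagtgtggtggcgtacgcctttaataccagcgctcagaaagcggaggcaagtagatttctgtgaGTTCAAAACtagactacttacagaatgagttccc
B1F2-10, also named as a B2 element, match to the B box only, chr10:79786977-79787079, plus strand: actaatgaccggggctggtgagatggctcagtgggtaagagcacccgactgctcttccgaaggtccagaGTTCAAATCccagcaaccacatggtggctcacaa

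Both strands of a window of 400 bp centred on each locus were searched for the 2 sets of letters, which do not overlap each other in any pair counted. The A box letters were found at 23 of the 29 B1 loci (79.3%), against 11.3% of all loci on the list, and the B box letters at 26 (89.7%), against 81.9% of all loci. An A box followed by a B box, 30 to 80 bases from start to start, was present at 20 B1 loci (69.0%), against 6.5% of all loci, a difference that the choice of B1-kind letters largely sets. The pair lay on the annotated strand at all 20 and was spaced by 54 bases at 19 of them and by 55 at the other, Mus1-7b. It was also found at 14 of 20 Rn4.5S loci (70.0%), which carry the RNA that is itself related to B1, and at 0 of 84 B2 and B3 SINEs, which descend from tRNA genes. The B box read GTTCGAGGC at 12 of the 20 loci and GTTCAAGGC at 7, while the A box read TGGCGCACGCC at 8 and TGGCGCATGCC at 6. A run of TTTT, the usual Pol III stop signal, followed the B box within the window at 12 of the 20 loci, 56 to 159 bases after it. Matches to the letters are a description of the sequence and not evidence that a factor was bound.

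The annotated intervals did not always cover the boxes. Of the 29, 6 loci had intervals of 164 to 291 bp, and the other 23 had intervals of exactly 100 bp. Both boxes lay inside the interval at 8 of the 20 loci that had them, partly inside at 11 and outside at 1, Mus1-15a, whose 100 bp begin just after the stretch shown. The flanks added to each interval for counting fragments take in the boxes there too.

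By the distance classes of the deposited list, 21 of the B1 loci were near a Pol II gene, with its start or its poly(A) signal less than 2.65 kb away, 8 lay farther from any and 0 lay near another Pol III gene. In the GENCODE annotation of NCBI37, 10 were in introns of protein-coding genes, 19 outside such genes and 0 in exons or UTRs. A total of 13 were within 1000 bp of an annotated start of a protein-coding transcript, and 8 of these stood upstream of the gene on the opposite strand. These 8 included Mus1-7b, 52 bp from the start of Eef2k, which encodes the kinase of translation elongation factor 2, Mm-9, 98 bp from Mtap4, which encodes a microtubule-associated protein, and Mm-6, 126 bp from Nup205, which encodes a nuclear pore protein. Mur3-14 lay 401 bp from a start of Pabpn1, which encodes the nuclear poly(A)-binding protein. Mus1-7a, by contrast, was 28361 bp from the nearest start, that of Swap70, and Mus1-19 was 20505 bp upstream of Klf9, which encodes a zinc finger transcription factor.

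**Figure D1:**
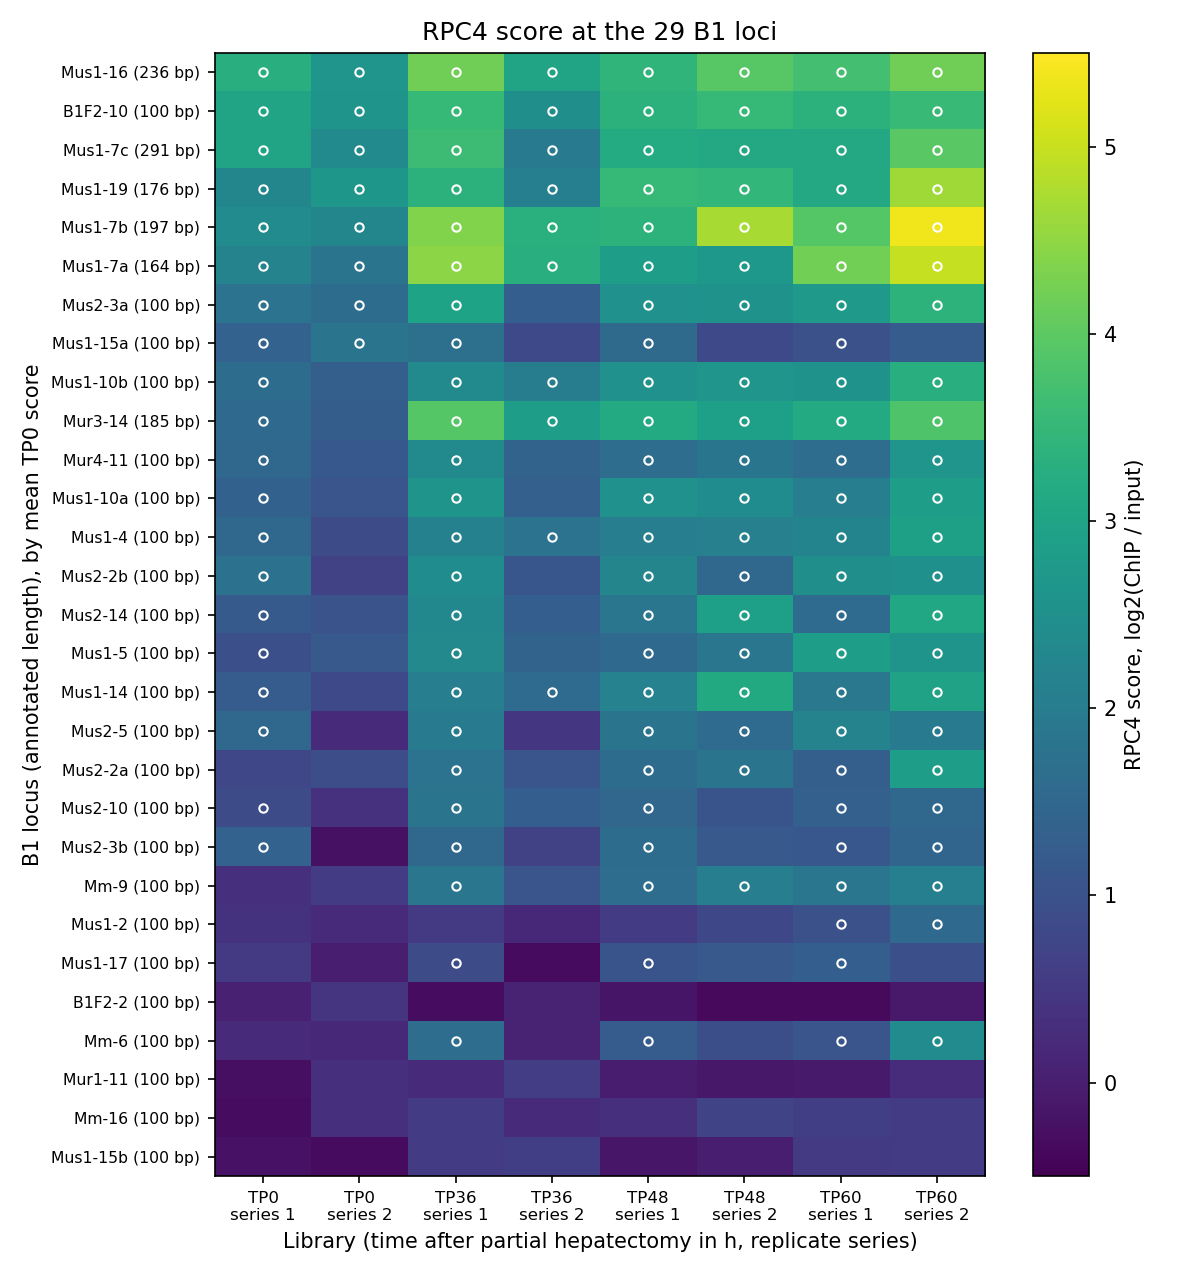
RPC4 score (log2 of ChIP over input, colour) at the 29 B1 loci (rows, ordered by mean TP0 score, with the annotated length) in the 8 libraries (columns). White circles mark scores above the cutoff of that library: 6 loci have circles in all 8 columns and 4 loci have none.

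The libraries of a time point differed from each other. The cutoff above which a score counted as Pol III occupancy was 0.81 to 0.87 in the 4 libraries of series 1 and 1.33 to 1.55 in those of series 2. At TP36, 26 of the 29 B1 loci scored higher in series 1 than in series 2, with a median gap of 0.94, and at TP60 only 4 did, with a median gap of -0.56. The same held over all loci, where series 1 was higher at 519 loci at TP36 and at 84 loci at TP60. Series 1 and series 2 thus differed by amounts close to the changes described later, and values within each series are given beside the pooled ones. Fragments with several matches on the genome, a usual worry at repeats, made up at most 3.44% of the score at any B1 locus in any library (Mus2-10), so that the B1 scores came almost wholly from uniquely placed fragments.

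Before surgery, B1 loci were bound weakly. At TP0 the score exceeded the cutoff of at least 1 library at 20 of the 29 loci, against 62.5% of all loci, and of both libraries at 8, against 54.2%. The median B1 score was 1.38 in series 1 and 0.91 in series 2, against 1.36 and 1.6 over all loci. The number of occupied B1 loci was 24 at TP36 (75.2% of all loci), 24 at TP48 (74.1%) and 25 at TP60 (75.2%). Counted in both libraries, it was 10, 19 and 23, against 64.9%, 70.9% and 73.5% of all loci. In at least 1 of the 8 libraries 25 B1 loci were above the cutoff (76.2% of all loci), and in all 8 libraries 6 were (53.3% of all loci): Mus1-7a, Mus1-7b, Mus1-7c, Mus1-16, Mus1-19 and B1F2-10. The other 4 were below it in every library: B1F2-2, Mur1-11, Mus1-15b and Mm-16.

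The 3 highest mean scores before surgery belonged to Mus1-16, B1F2-10 and Mus1-7c. Mus1-16 (chr16:84746464-84746699), far from any Pol II gene, had scores of 3.26 and 2.63 at TP0, 4.21 and 2.99 at TP36, 3.42 and 3.93 at TP48, and 3.71 and 4.21 at TP60. Its change at TP60 was 1.02 ± 0.50 (SE), with q = 0.0624, and the TP36 libraries overlapped those of TP0. Mus1-7c (chr7:133824516-133824806), a locus 4570 bp upstream of the start of Sult1a1, a sulfotransferase gene, had 3.0 and 2.35 at TP0, 3.62 and 1.95 at TP36, 3.20 and 3.12 at TP48, and 3.11 and 3.96 at TP60. It changed by 0.86 ± 0.57 at TP60 (q = 0.114), its lowest value being one at TP36. B1F2-10 (chr10:79786931-79787030), in an intron of the proprotein convertase gene Pcsk4, is named both as a B1F2 and as a B2_Mm1a element. The B box shown above lies in sequence with no A box match of the B1 kind, and the score cannot be assigned to either element alone. This locus had 3.0 and 2.61 at TP0, 3.52 and 2.48 at TP36, 3.35 and 3.53 at TP48, and 3.36 and 3.56 at TP60, a narrow range, and its change at TP60 was 0.66 ± 0.45 (q = 0.123).

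Annotated length went with the score throughout. The 6 longer loci had median scores (means of 2 libraries) of 2.39 before surgery and 3.49, 3.32 and 3.92 at 36, 48 and 60 h, against 0.87, 1.47, 1.71 and 2.09 at the 23 loci of 100 bp. Mur3-14 was the lowest of the longer loci at TP0, at 1.41, and B1F2-10 the highest of the short ones, at 2.80, so that both groups overlapped. Among the short loci, the 4 far from Pol II genes had medians of 1.16, 1.88, 2.23 and 2.46, against 0.84, 1.26, 1.70 and 1.98 at the 19 near such a gene. All 8 B1 loci far from Pol II genes were above the cutoff of at least 1 TP0 library, against 12 of the 21 near them. In both libraries 4 of the 8 were above it, against 4 of the 21, but those 4 of the 8 were all longer loci. Among loci of 100 bp, 4 of the 4 far ones and 10 of the 19 near ones were above it in at least 1 library. In both libraries 0 of the 4 and 3 of the 19 were. The interval in which fragments were counted is longer at longer loci, and the part of this in their scores was not tested. The 6 longer loci were also the only B1 loci whose deposited names put SINE before Alu. Length and form of entry cannot be told apart. B2 and B3 SINEs had values in the same order: medians at TP0 were 2.06 at the 22 longer loci, against 0.85 at the 62 of 100 bp.

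**Figure D2:**
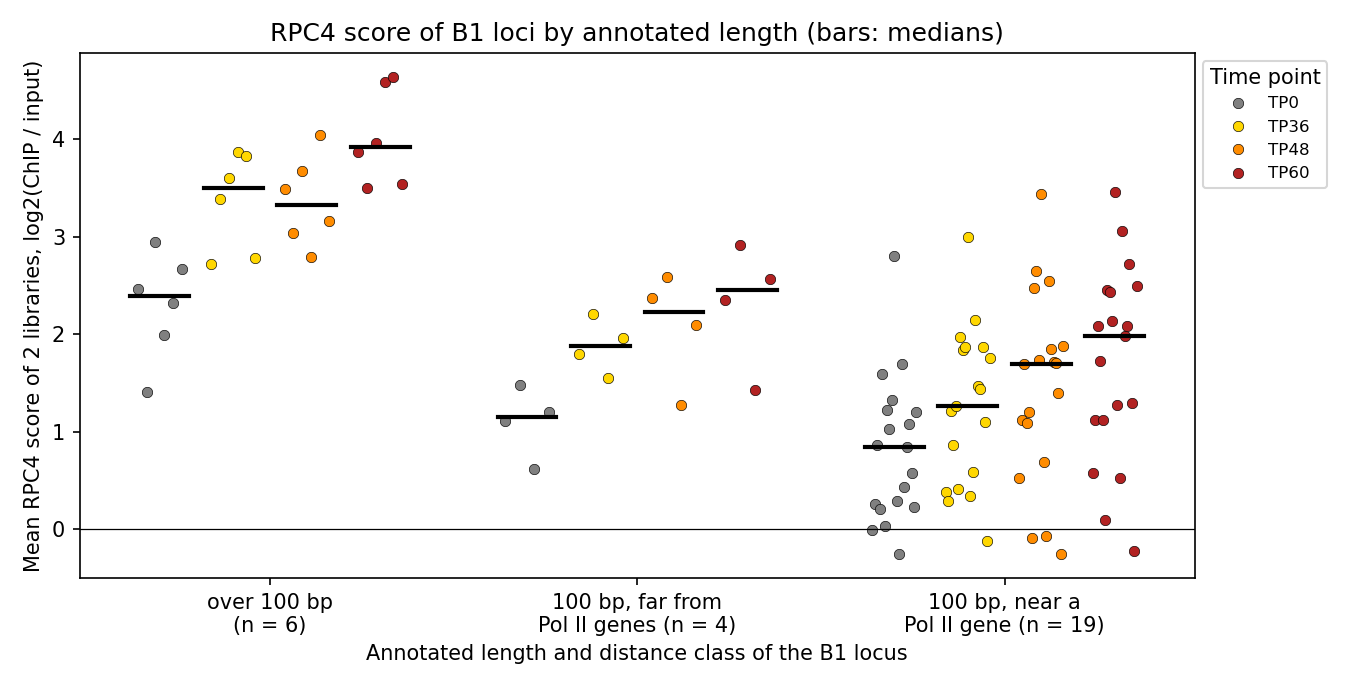
Mean RPC4 score of 2 libraries (vertical axis, log2 of ChIP over input) of each B1 locus at the 4 time points, by annotated length and distance from Pol II genes; points are loci and bars medians. The 6 longer loci have medians of 2.39 to 3.92, above those of the short loci at every time point.

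After surgery, RPC4 scores at B1 loci were mostly higher than before, except that the direction flips when each library is centred on its median over all loci on the list. The loci that passed the test were few at 36 h and more at 60 h. In scores as deposited the median change against TP0 was 0.60 at TP36, 0.82 at TP48 and 1.23 at TP60, against 0.68, 0.88 and 0.95 over all loci. The centring lowers every change by 1.72, 1.72 and 1.93, the amounts by which the all-locus library medians moved, so that the B1 medians become -1.12, -0.90 and -0.71. Centred on the 154 loci that were below the cutoff in every library, whose median moved by only 0.02, 0.03 and 0.08, the B1 medians were 0.58, 0.79 and 1.15. This second centring was chosen after seeing the data. The 3 comparisons share the TP0 libraries, so they are not independent of each other.

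Within series 1 the B1 median change was 0.85 at TP36, 0.59 at TP48 and 0.69 at TP60, and within series 2 it was 0.26, 0.90 and 1.68. Thus the growing change over time seen in the pooled values was present in series 2 and not in series 1. At TP36, 19 of the 29 B1 loci were higher than at TP0 in both series, against 67.5% of all loci. At TP48, 26 were, as were 517 loci of the whole list, and at TP60, 25 were (79.6% of all loci). Both later libraries lay above both TP0 libraries at 12 B1 loci at TP36 (55.9% of all loci), 24 at TP48 (74.6%) and 25 at TP60 (69.0%). Both later libraries lay below both TP0 libraries at 0, 1 and 2 B1 loci, against 2.32%, 2.48% and 3.1% of all loci.

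**Figure D3:**
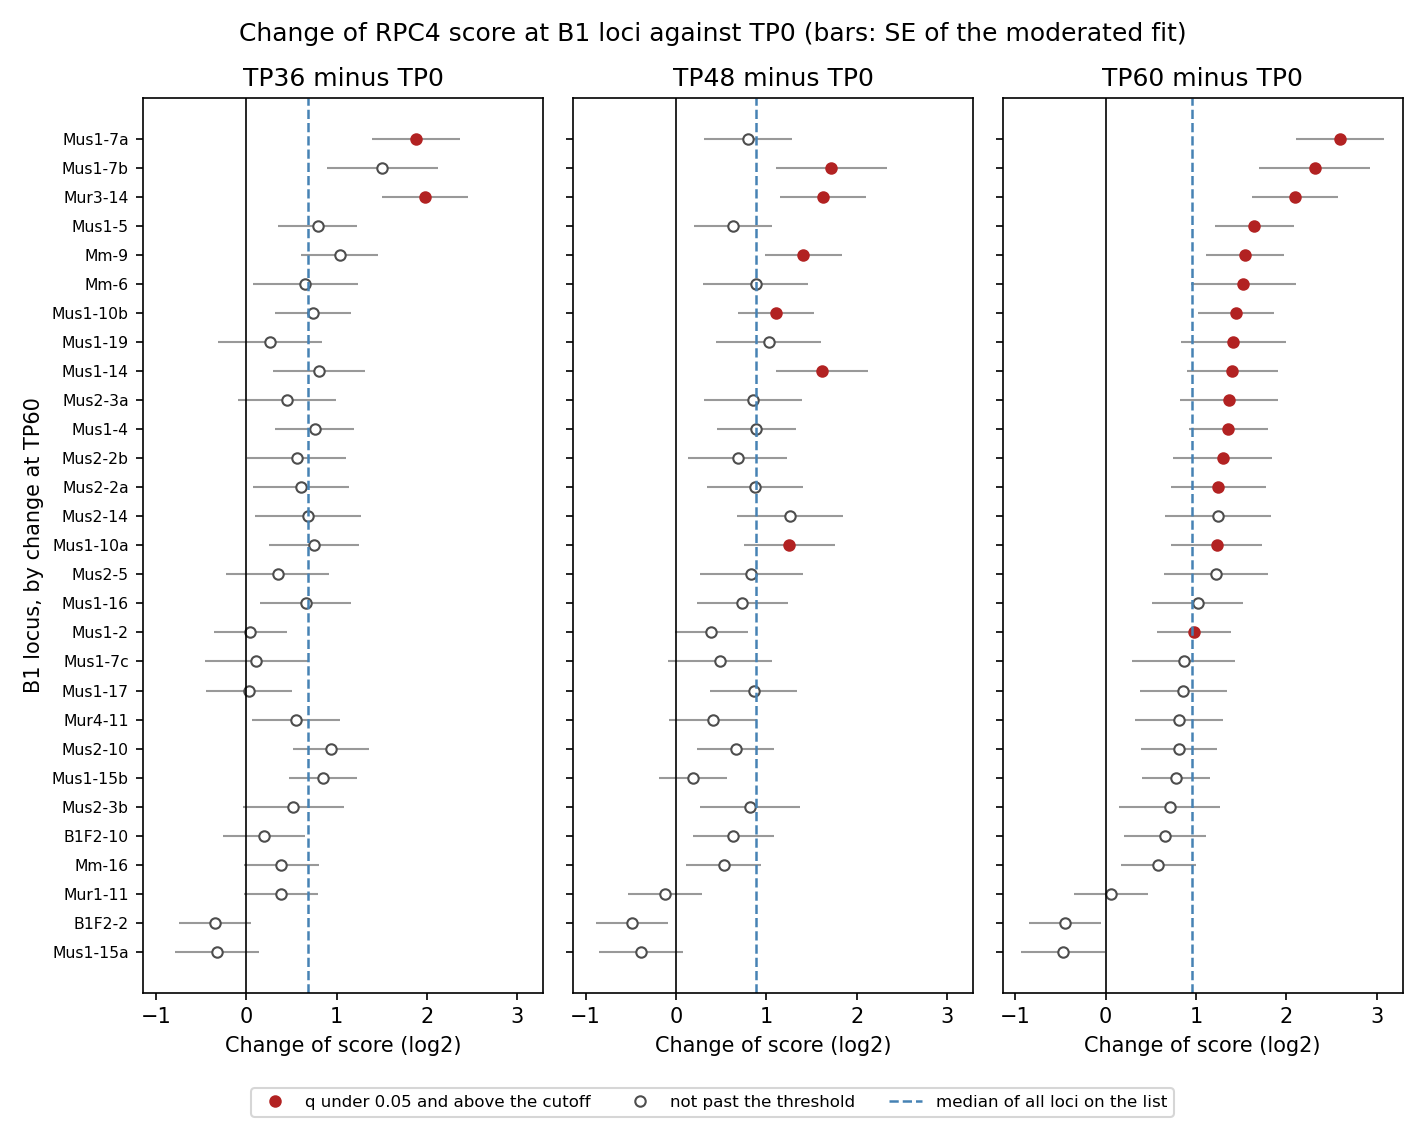
Change of RPC4 score against TP0 (horizontal axis, log2) at each of the 29 B1 loci at TP36, TP48 and TP60, with the SE of the moderated fit; filled points are loci with q under 0.05 and above the cutoff, and the dashed line is the median change of all loci. The filled points number 2, 6 and 15, all to the right of 0 (with libraries centred on the median of all loci, the calls are mostly to the left of 0).

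At 36 h, 2 of the 29 B1 loci rose, Mus1-7a and Mur3-14, while 21.8% of all loci did. The calls were those with q under 0.05 in a limma model over all loci and a score above the cutoff at either time point. The count fell without the TP0 library of series 1, the TP0 library of series 2 or the TP36 library of series 1. Without the TP36 library of series 2 it rose, and the share of all loci called moved likewise each time. Median B1 changes were then 0.76, 0.58, 0.11 and 1.02, in that order. At 48 h, 6 loci rose (38.2% of all loci): Mus1-7b, Mm-9, Mus1-10a, Mus1-10b, Mur3-14 and Mus1-14. The count fell without any 1 TP0 or TP48 library, as did the share of all loci called, with median B1 changes of 0.60 to 0.94. The fit of TP0 and TP48 alone gave 21 (66.7% of all loci). At 60 h, 15 loci rose (43.2% of all loci). Median B1 changes were 0.77 to 1.33 when 1 TP0 or TP60 library was left out. The number called fell without either TP0 library or the TP60 library of series 2. It rose without the TP60 library of series 1, and the share of all loci called moved likewise. All of these calls were higher than at TP0. With libraries centred on the median of all loci, the B1 calls were mostly lower ones, but often at other loci. Of the 2, 6 and 15 loci called before, 0, 1 and 9 were called in that setting. The changes of Mus1-7a and Mur3-14 at TP36 were then 0.16 and 0.26. The share of B1 loci called was thus below that of all loci at TP36 and TP48 and above it at TP60, with no test of the difference. This order was not stable. At TP60 it reversed with Benjamini-Hochberg adjustment (7 of 29 B1 loci, 27.2% of all loci). At TP48 it reversed in the fit of TP0 and TP48 alone (21 of 29 B1 loci, 66.7% of all loci).

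The q values were lenient at the 2 later time points, where the estimated share of unchanged loci was 0.385 and 0.439. At TP48 and TP60 the loci called were the same in number as those with an unadjusted p under 0.05 (6 and 15). With Benjamini-Hochberg adjustment of the same limma fit, the B1 counts were 2 at TP36, 3 at TP48 and 7 at TP60, against 14.2%, 20.6% and 27.2% of all loci. The 3 at TP48 were Mm-9, Mur3-14 and Mus1-14, and the 7 at TP60 were Mus1-4, Mus1-5, Mus1-7a, Mus1-7b, Mm-9, Mus1-10b and Mur3-14.

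Mur3-14 was the only B1 locus to pass at all 3 time points. It lies near a start of Pabpn1 (chr14:55512400-55512584) and scored 1.56 and 1.26 at TP0, 3.93 and 2.85 at TP36, 3.18 and 2.90 at TP48, and 3.16 and 3.85 at TP60. Every later library was above both TP0 libraries. The changes were 1.98 ± 0.48 (SE, q = 0.00936) at TP36, 1.63 ± 0.48 (q = 0.0131) at TP48 and 2.09 ± 0.48 (q = 0.0035) at TP60, by limma over all loci.

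Mus1-7a, which lies in no protein-coding gene (chr7:117336693-117336856), had the largest change of any B1 locus. It scored 2.18 and 1.81 at TP0, 4.46 and 3.28 at TP36, 2.87 and 2.71 at TP48, and 4.21 and 4.96 at TP60, so that it stood lower at 48 h than at 36 or 60 h in both series. The 48 h samples also came from another time of day than those at 36 and 60 h. So did those of TP0, if taken at the hour of surgery. The changes of Mus1-7a against TP0 were 1.88 ± 0.49 (q = 0.0123) at TP36, 0.80 ± 0.49 (q = 0.092) at TP48 and 2.59 ± 0.49 (q = 0.00129) at TP60. This was the one B1 locus called higher at TP60 when libraries were centred on the median of all loci.

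Mus1-7b, the locus beside Eef2k (chr7:127986097-127986293), reached the highest B1 score of any library. It had 2.40 and 2.25 at TP0, 4.35 and 3.31 at TP36, 3.37 and 4.72 at TP48, and 3.91 and 5.37 at TP60. All later libraries were above those of TP0, with changes of 1.5 ± 0.62 (q = 0.0678) at TP36, 1.72 ± 0.62 (q = 0.0284) at TP48 and 2.31 ± 0.62 (q = 0.00768) at TP60. Its 2 libraries differed by more than 1 at each later time point.

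Some loci had scores below both cutoffs at TP0 and above at least 1 of them later. Mm-9, beside Mtap4 (chr9:109833765-109833864), had 0.30 and 0.58 at TP0, 1.86 and 1.08 at TP36, 1.64 and 2.06 at TP48, and 1.87 and 2.10 at TP60. It rose by 1.41 ± 0.43 at TP48 (q = 0.0159) and by 1.54 ± 0.43 at TP60 (q = 0.00943). Mm-6, beside Nup205 (chr6:35127220-35127319), had 0.22 and 0.19 at TP0, 1.63 and 0.09 at TP36, 1.24 and 0.94 at TP48, and 1.07 and 2.39 at TP60. The series 2 library at TP36 was thus still at the TP0 level, and the change passed at TP60 only, at 1.52 ± 0.58 (q = 0.032). Mus1-2, in an intron of Nup35, another nuclear pore gene, also passed only at TP60, where it changed by 0.98 ± 0.41 (q = 0.0404) and first crossed the cutoffs.

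Mus1-10b (chr10:126597026-126597125) lay outside protein-coding genes, 5122 bp upstream of B4galnt1, a gene of ganglioside synthesis. It had 1.63 and 1.33 at TP0, 2.38 and 2.05 at TP36, 2.54 and 2.63 at TP48, and 2.56 and 3.28 at TP60. No later library overlapped TP0, with changes of 1.11 ± 0.42 at TP48 (q = 0.0332) and 1.44 ± 0.42 at TP60 (q = 0.0111). Mus1-14 (chr14:71113711-71113810), in an intron of Xpo7, which encodes an exportin, had 1.24 and 0.83 at TP0, 2.07 and 1.61 at TP36, 2.17 and 3.14 at TP48, and 1.91 and 2.97 at TP60. It rose by 1.62 ± 0.51 at TP48 (q = 0.0173) and by 1.40 ± 0.51 at TP60 (q = 0.0268), and again no later library overlapped TP0. Mus1-10a, 218 bp upstream of Ccar1, rose by 1.25 ± 0.50 at TP48 (q = 0.0387) and by 1.23 ± 0.50 at TP60 (q = 0.0395).

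The remaining loci that rose did so at 60 h alone. Mus1-5 (chr5:137775343-137775442), 518 bp upstream of the transporter gene Slc12a9, had 0.97 and 1.19 at TP0, 2.32 and 1.42 at TP36, 1.56 and 1.86 at TP48, and 2.84 and 2.61 at TP60. Its change at TP60 was 1.65 ± 0.43 (q = 0.00737), and at TP36 and TP48 it was 0.79 (q = 0.119) and 0.63 (q = 0.111). Mus1-4 (chr4:135550206-135550305), outside protein-coding genes, had 1.53 and 0.88 at TP0, 2.14 and 1.78 at TP36, 2.07 and 2.12 at TP48, and 2.21 and 2.91 at TP60. It rose at TP60 by 1.36 ± 0.44 (q = 0.0174), and its values at 36 and 48 h lay between those of TP0 and TP60. Mus2-3a (chr3:94499511-94499610), which overlaps introns of Cgn and Selenbp2, had 1.78 and 1.61 at TP0, 2.98 and 1.30 at TP36, 2.54 and 2.55 at TP48, and 2.73 and 3.39 at TP60. The TP36 libraries stood on either side of TP0, and the change passed at TP60 only, at 1.36 ± 0.54 (q = 0.0374). Mus2-2a, Mus2-2b and Mus1-19 changed at TP60 by 1.25, 1.29 and 1.41, with q between 0.0398 and 0.0426.

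At the other end were 3 loci that showed little or no gain. Mus1-15a (chr15:41621390-41621489), in an intron of Oxr1, a gene of oxidative stress resistance, had 1.38 and 1.8 at TP0, 1.70 and 0.82 at TP36, 1.58 and 0.83 at TP48, and 0.98 and 1.25 at TP60. It was occupied at TP0 in both libraries and its change at TP60 was -0.47 ± 0.47 (q = 0.19). Both TP60 libraries lay below both TP0 libraries, a difference that did not pass the test. It did pass when the loci below every cutoff were left out of the limma fit (q = 0.0221). That fit called 98.6% of the loci left at TP60, so passing it does not set this locus apart. B1F2-2 (chr2:154878649-154878748) had 0.06 and 0.40 at TP0, -0.30 and 0.07 at TP36, -0.15 and -0.35 at TP48, and -0.36 and -0.09 at TP60, which left it below every cutoff. Mur1-11 (chr11:48686457-48686556), 1535 bp upstream of Irgm1, an interferon-induced GTPase gene, had -0.25 and 0.32 at TP0, 0.25 and 0.58 at TP36, -0.05 and -0.11 at TP48, and -0.07 and 0.26 at TP60, again below every cutoff. The changes of B1F2-2 and Mur1-11 at TP60 were -0.45 ± 0.40 (q = 0.172) and 0.06 ± 0.41 (q = 0.409).

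Besides these 3, 11 loci passed no test against TP0. They are Mus2-3b (chromosome 3, start 146184477), Mus2-5 (chromosome 5, start 33205445), Mus2-10 (chromosome 10, start 127071228), Mur4-11 (chromosome 11, start 75237773), Mus2-14 (chromosome 14, start 74022510), Mus1-15b (chromosome 15, start 81295628), Mm-16 (chromosome 16, start 18058411) and Mus1-17 (chromosome 17, start 24832079), with Mus1-7c, B1F2-10 and Mus1-16 described above. Loci already placed by name only are Mus1-2 (chromosome 2, start 80479746), Mus2-2a (chromosome 2, start 122059558), Mus2-2b (chromosome 2, start 173043603), Mus1-10a (chromosome 10, start 62255334) and Mus1-19 (chromosome 19, start 23195036). Of those without a call, Mus2-5 and Mus2-14 came nearest at TP60, with changes of 1.22 (q = 0.0551) and 1.24 (q = 0.0566). Mus1-15b and Mm-16 changed by 0.78 and 0.58 at TP60 without reaching a cutoff.

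Between the later time points no B1 locus changed, and neither did any other locus on the list (0.0% in all 3 comparisons), by q values or by Benjamini-Hochberg adjustment of the limma fit. With an unadjusted p under 0.05, B1 loci numbered 0 from TP36 to TP48, 1 from TP36 to TP60 and 2 from TP48 to TP60, against 0.774%, 1.08% and 2.32% of all loci. These were Mus1-2, which was 0.93 ± 0.41 higher at TP60 than at TP36, and Mus1-5 and Mus1-7a, which were 1.01 ± 0.43 and 1.8 ± 0.49 higher at TP60 than at TP48. The median B1 differences were 0.23 for TP48 minus TP36, 0.60 for TP60 minus TP36 and 0.37 for TP60 minus TP48. Whether B1 loci gained RPC4 between 36 and 60 h was therefore not shown at this number of replicates.

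By subfamily, B1_Mus1, the largest group, had 1 of 14 loci that rose at TP36, 4 at TP48 and 9 at TP60. Its median change at TP60 was 1.29. B1_Mus2 had 0, 0 and 3 of 7, with a median of 1.24 at TP60, and all 7 were above the cutoff of at least 1 library at each later time point, but those above it in both libraries numbered 0, 5 and 7. The 3 B1_Mm loci were all below the cutoffs at TP0, and 2 of them, Mm-6 and Mm-9, were above the cutoff of at least 1 library at TP36 and later, of both libraries at 0 loci at TP36, 1 at TP48 and 2 at TP60. Of the B1F2 pair neither passed. The 20 loci with both box matches had 13 calls at TP60 and a median change of 1.33, and the 9 others had 2 calls and a median of 0.86. The 10 intronic loci had 5 calls and a median of 0.92, and the 19 outside genes 10 calls and a median of 1.24. Near a Pol II gene 11 of 21 were called and far from one 4 of 8, with medians of 1.22 and 1.30. The 6 longer loci had 4 calls and a median of 1.75, and the 23 short ones 11 calls and a median of 1.22. None of these splits was tested, since loci are not replicates, and the medians flip in sign under centring on all loci where they are below 1.93.

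The B1 loci may be set beside the gene from which they derive. The 2 Rn7sl genes on chromosome 12 were far more strongly bound. The one at chr12:70260298-70260551 had 4.45 and 5.22 at TP0, 5.83 and 5.73 at TP36, 5.52 and 5.78 at TP48, and 5.20 and 5.55 at TP60. The one at chr12:70462167-70462478 had 4.86 and 4.83 at TP0, 5.80 and 5.04 at TP36, 5.58 and 5.66 at TP48, and 5.35 and 6.27 at TP60. Neither passed the test against TP0 at any time point, with changes between 0.54 and 0.97, although all later libraries but 1, of the first gene, were above both TP0 libraries. Scores were above those of every B1 locus at TP0, by more than 1 on the log2 scale.

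**Figure D4:**
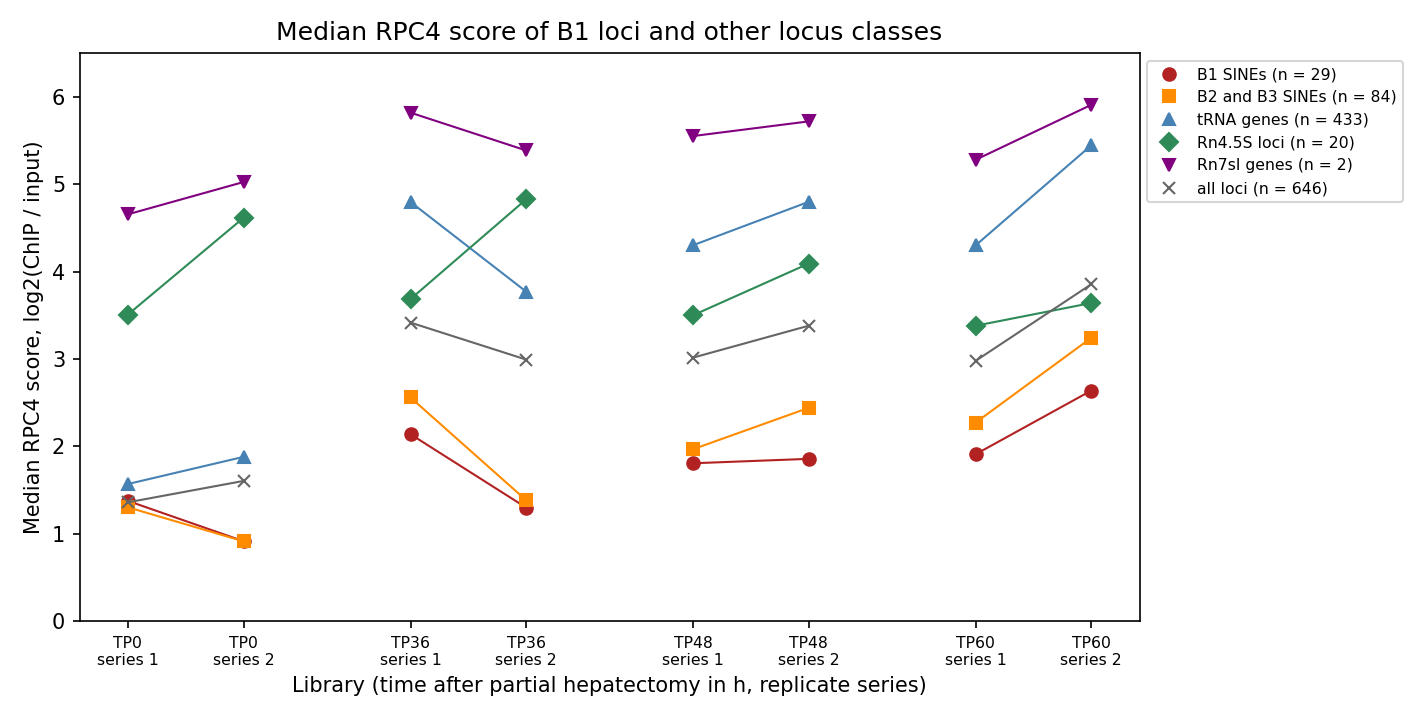
Median RPC4 score (vertical axis, log2 of ChIP over input) of B1 loci and of other classes in each of the 8 libraries, with a line joining both libraries of a time point. From TP0 to TP60, B1 medians go from 1.38 to 1.91 in series 1 and from 0.91 to 2.64 in series 2. Those of B2 and B3 SINEs go from 1.30 to 2.27 in series 1 and from 0.91 to 3.24 in series 2. In series 1 the highest B1 median is 2.14, at TP36. B1 medians are below those of tRNA genes in every library. Centred on the all-locus median, the B1 medians are lower after surgery than before it.

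In B2 and B3 SINEs, the other large SINE group on the list, the median changes against TP0 were 0.88, 1.05 and 1.40. The share called was 6.9% of B1 loci and 31.0% of B2 and B3 loci at TP36, 20.7% and 45.2% at TP48, and 51.7% and 60.7% at TP60, with no test of the difference. The 20 Rn4.5S loci were occupied in every library and had median changes of 0.23, -0.20 and -0.48, with 0, 3 and 1 called. The 433 tRNA genes had median changes of 0.60, 0.98 and 0.98, with 103, 185 and 199 called (23.8%, 42.7% and 46.0%). Another 7 loci name a B1 or PB1D element in second place or with a prefix, and 1, 3 and 4 of them rose. The largest of their changes was at a locus named for a B2_Mm1t and a B1_Mur3 element (chr11:68889367-68889466), which had 0.74 and 0.23 at TP0, 3.44 and 1.62 at TP36, 2.42 and 3.56 at TP48, and 2.83 and 4.21 at TP60. Its changes of 2.05 ± 0.68, 2.50 ± 0.68 and 3.04 ± 0.68 (q = 0.034, 0.00962 and 0.00316, limma over all loci) exceeded those of all 29 B1 loci at each time point. Which of the paired elements carries the polymerase cannot be told from the score.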

How the data were processed

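The analysis used the 8 RPC4 ChIP-seq libraries of the deposited table of Pol III loci. According to the study's methods, the authors mapped read pairs to NCBI37 (mm9) with ELAND and fetchGWI, scaled fragment totals to the median over samples, and computed log2 scores of ChIP over input in each extended locus with a pseudocount. The deposited percent columns give the share of each score from fragments with multiple matches. The cutoffs stand in the file headers. Columns left out because no sample matched them numbered 0. Scores were used as deposited, with no filter. Fragment counts are not given in the sources used here, so that depth is unknown and the spread between 2 libraries is the only measure of error.

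For each change, limma 3.58.1 under R 4.3.3 fitted a mean for every time point, moderating variances by empirical Bayes across the whole list. Two-sided p values were turned into Storey q values by the spline method. A locus was occupied when its score exceeded the cutoff of at least 1 library of a time point, and changed when q was under 0.05 and it was occupied at either time point. The fit was tested on simulated scores of the whole list for TP36 against TP0 (200 loci changed, 20 runs): it recovered 31.3% of loci changed by 1 and 92.4% of those changed by 2 on the log2 scale, and 4.6% of its calls were false. Simulated noise was independent between loci and calls used q alone, whereas the real libraries moved together at many loci. The share of false calls in these data is therefore not known from the simulation. P-values measure the spread between these pooled libraries only. The submitters' processing notes name mm9 and bedtools.

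Sequences were read with pysam from the NCBI37 genome and matched to GENCODE vM1. Some sequences are not reported here. Values in all libraries are given for loci changed against TP0 (the 10 with the largest moderated t), the 3 highest at TP0, the 3 with the lowest change at TP60 and the locus that also names a B2 element. Members, lists and alternatives were chosen with earlier results of these data known. Alternatives covered the adjustment, the fit, the scaling, repeat mapping, occupancy, single libraries and the member rule.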

Additional observations from a re-analysis of the deposited data

How the results depend on the processing

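With 2 libraries per time point, and cutoffs and levels that differ between the series, the counts of changed B1 loci are the least certain values here. The median B1 change against TP0 was positive under every setting run except centring on all loci. For TP36, TP48 and TP60 against TP0, the counts of 2, 6 and 15 were 2, 3 and 7 with Benjamini-Hochberg adjustment, 3, 21 and 16 in a fit of the 2 time points alone, 2, 10 and 18 with a variance trend, 3, 7 and 18 with libraries centred on the never-occupied loci, and 5, 24 and 25 without the loci below every cutoff (0, 1 and 1 of them lower, the others higher), where the estimated share of unchanged loci fell to 0.237, 0.035 and 0.0511. Leaving out 1 library gave 0 to 13, 0 to 3 and 3 to 19 calls and median changes of 0.11 to 1.02, 0.60 to 0.94 and 0.77 to 1.33. Occupancy in both libraries gave 8 occupied loci at TP0 and 10 at TP36. Centred on the median of all loci, 21, 18 and 19 were called (60.1%, 51.1% and 59.0% of all loci), of which 21, 18 and 18 were lower. The median B1 changes in this setting were -1.12, -0.90 and -0.71. Single changes were recomputed only for loci called in that comparison and, at TP60, for those given with all their libraries. Of these, the ones that turned negative were, at TP48, -0.30 at Mm-9, -0.46 at Mus1-10a, -0.61 at Mus1-10b, -0.091 at Mur3-14 and -0.10 at Mus1-14. At TP60 they were -0.96 at Mus1-2, -0.69 at Mus2-2a, -0.64 at Mus2-2b, -0.57 at Mus2-3a, -0.58 at Mus1-4, -0.29 at Mus1-5, -0.41 at Mm-6, -1.07 at Mus1-7c, -0.39 at Mm-9, -0.71 at Mus1-10a, -1.28 at B1F2-10, -0.49 at Mus1-10b, -1.88 at Mur1-11, -0.53 at Mus1-14, -0.92 at Mus1-16 and -0.52 at Mus1-19. Mur1-11 was -0.018 at TP60 with libraries centred on the never-occupied loci, and -0.23 to 0.34 when 1 library was left out. With the series number as a replicate block the counts were 2, 5 and 11 (25.9%, 30.5% and 37.2% of all loci). Correlations of the deviations of same-numbered libraries ran from -0.40 to 0.48, so that not every pair was alike and the series were not treated as pairs. Whether a series shares a batch is not known. Leaving out loci of multiple matches changed no B1 count, and counting the loci that name B1 in second place gave 3, 9 and 19. The cause of these shifts was not tested.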
